A study of Ovis aries with 8 samples.

Results

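Cells take up and exchange amino acids through membrane carriers of several solute carrier (SLC) gene families. The genes described here are those whose symbol in the deposited table starts with SLC1A, SLC3A, SLC6A, SLC7A, SLC36A, SLC38A or SLC43A followed by a number. By that rule 58 of the 28475 genes in the table were members, and all 58 symbols are listed as protein-coding genes in RefSeq's sheep annotation (ARS-UI_Ramb_v3.0). SLC7A6OS, which shares the start of its name, was left out by the rule, and SLC7A12 and SLC7A13 are not analysed here. Members were not picked by their level or change.

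Polyadenylated RNA of sheep embryonic stem cells, derived from the blastocyst's inner cell mass, was sequenced in 4 groups of 2 libraries. Lines A and B of primed cells, labelled wild-type, both feeder-free and at passage 10, grew in NBFR medium with Activin A and bFGF (20 ng/mL each), the tankyrase inhibitor endo-IWR-1 at 3 µM, 1% BSA, N2, B27, a glutamine dipeptide supplement (GlutaMAX) and non-essential amino acids. Naive-like cells, converted from primed cells and at passage 12, received LIF and Activin A (20 ng/mL each), the MEK inhibitor PD0325901 (1 µM), the tankyrase inhibitor XAV-939 (2 µM), the protein kinase C inhibitor Go6983 (2 µM), the SRC inhibitor CGP77675 (1.2 µM) and 50 µg/mL ascorbic acid, either feeder-free or on mouse embryonic fibroblasts (MEFs, a layer of supporting cells). All cultures were held at 37 °C with 5% CO2. The line that gave rise to the naive-like cells, and whether their medium also contained the amino acid supplements listed for primed medium, are not given in the sources used here. State, medium and passage therefore cannot be told apart in any comparison between primed and naive-like cells. The unknown line of origin cannot be separated from them either. The sources do not say whether libraries of a group were separate cultures, and the p-values cover only the spread between libraries, which may be technical.

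Amino acid carriers differ in what they move and in what drives them. SLC1 carriers bring in glutamate or small neutral amino acids with sodium, and SLC6 carriers use sodium and chloride to move neurotransmitters, amino acids and related molecules. SLC7 holds carriers of arginine and lysine and the light chains that work as exchangers once bound to a heavy chain of the SLC3 family. SLC38 carriers move glutamine and other neutral amino acids with sodium, SLC36 carriers are coupled to protons, and SLC43A1 and SLC43A2 let large neutral amino acids flow down their gradient. The amino acids that enter are used for protein synthesis and fuel, and their level at the lysosome is read by the kinase complex mTORC1.

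Levels are in TPM, transcripts per 1000000 transcripts, corrected for transcript length, so that genes can be set side by side. Each library summed to 1000000 TPM, and 13294 to 13664 genes reached 1 TPM in a library. The labels give about 20 M paired-end reads per library, but counts were not analysed here and the depth behind single values is unknown. Pluripotency markers differed widely in level. POU5F1, a core pluripotency factor, was at 609.7 to 662 TPM in primed and 1532 to 1706 TPM in naive-like libraries. SOX2, its partner factor, was at 290.2 to 324 TPM over all 8, LIN28A at 937.5 to 1391, SALL4 at 84.05 to 123.3 and UTF1 at 36.48 to 49.66 TPM. NANOG was at 9.12 to 16.4 TPM in primed and 83.0 to 136 TPM in naive-like libraries. PRDM14 was at 6.67 to 7.90 and 47.4 to 56.4 TPM, and DPPA4 at 0.180 to 1.74 TPM over all libraries. Several technical and cell-type measures moved with state. Ribosomal RNA genes summed to 44180 to 62590 TPM in primed and 14280 to 34820 TPM in naive-like libraries. The 16 fibroblast markers summed to 1217 to 1303 TPM in primed, 616 to 626 TPM in feeder-free naive-like and 794 to 796 TPM in MEF libraries, and most of that sum was TAGLN, at 984 ± 38.5 TPM in primed and 459.8 ± 39.9 TPM in naive-like libraries (SD, n = 4). The 9 hypoblast markers, nearly all of whose sum was APOA1, summed to 379 to 471 TPM in primed and 70.8 to 91.9 TPM in naive-like libraries. Of these markers, GATA4, GATA6, SOX17 and HNF4A stayed at or under 0.0636, 0.390, 0.239 and 0.226 TPM over all libraries. FOXA2 was at 0.89 to 1.92 TPM in primed and at most 0.239 TPM in naive-like libraries. The neural markers in the table summed to 90.5 to 142 TPM in primed and 35.6 to 42.4 TPM in naive-like libraries. Of the neural sum, NES gave 12.7 to 74.6 TPM in primed and 34.5 to 41.2 TPM, nearly all of it, in naive-like libraries. Trophectoderm markers reached 2.77 TPM in sum at most. The part of these shifts in the results below was not tested. RNA was taken from whole cultures, so fewer cells of a type and less RNA per cell cannot be told apart.

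Of the 58 members, 36 were expressed, reaching 1 TPM in 2 or more libraries, 19 were silent, meaning under 1 TPM in each library, and 3 lay in between. With a minimum of 0.5 TPM or 2 TPM in place of 1 TPM, 40 or 33 were expressed. SLC43 was expressed in full (3 of 3 genes). SLC38 followed with 9 of 11, SLC7 with 9 of 12, SLC1 with 5 of 7, SLC36 with 2 of 4 and SLC3 with 1 of 2. In SLC6, the family of the neurotransmitter carriers, 7 of 19 genes were expressed and 11 were silent. At the top, SLC7A3 and SLC38A2 were at 100 TPM or more in every library, and 17 members were at 10 TPM or more in every library.

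Many of the silent members are carriers known from the epithelia of gut and kidney or from the nervous system. SLC3A1 and SLC7A9, the pair that takes up cystine and cationic amino acids in the kidney tubule, peaked at 0.217 and 0.0946 TPM. The intestinal and renal neutral amino acid carriers SLC6A18 and SLC6A19 were silent, with SLC6A18 listed at 0 in all libraries and SLC6A19 at no more than 0.0976 TPM. SLC6A2 and SLC6A4, which recover noradrenaline and serotonin, reached 0.104 and 0.561 TPM. The neuronal glycine carrier SLC6A5 peaked at 0.461 TPM and the proline carrier SLC6A7 at 0.287 TPM. SLC6A12 (betaine and GABA) and SLC6A13 (GABA) stayed at or under 0.0739 and 0.320 TPM. The broad-range carrier SLC6A14, the orphan carrier SLC6A16 and the synaptic vesicle carrier SLC6A17 stayed at or under 0.415, 0.268 and 0.402 TPM. The glutamate carriers SLC1A1 and SLC1A3, found in neurons and glia, peaked at 0.534 and 0.507 TPM. The proton-coupled SLC36A2 and SLC36A3 peaked at 0.0573 and 0.0355 TPM, and the lysosomal SLC7A14 at 0.165 TPM. SLC38A3, the glutamine carrier of liver and kidney, came closest to the 1 TPM limit, at 0.399 to 0.912 TPM. In all, 6 silent members were under 0.1 TPM in each library.

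The in-between genes were low in all groups. SLC38A11 was at 0.0331 to 0.303 TPM in primed and 0.688 to 1.66 TPM in naive-like libraries, and the GABA carrier SLC6A11 at 0.105 to 0.594 and 0.841 to 1.22 TPM. Neither gene's primed libraries overlapped its naive-like ones. SLC7A10, a light chain for small neutral amino acids, was at 0.239 to 1.28 TPM with overlap. These genes did not pass the filter of the tests, which needs 1 TPM in 2 libraries.

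**Figure D1:**
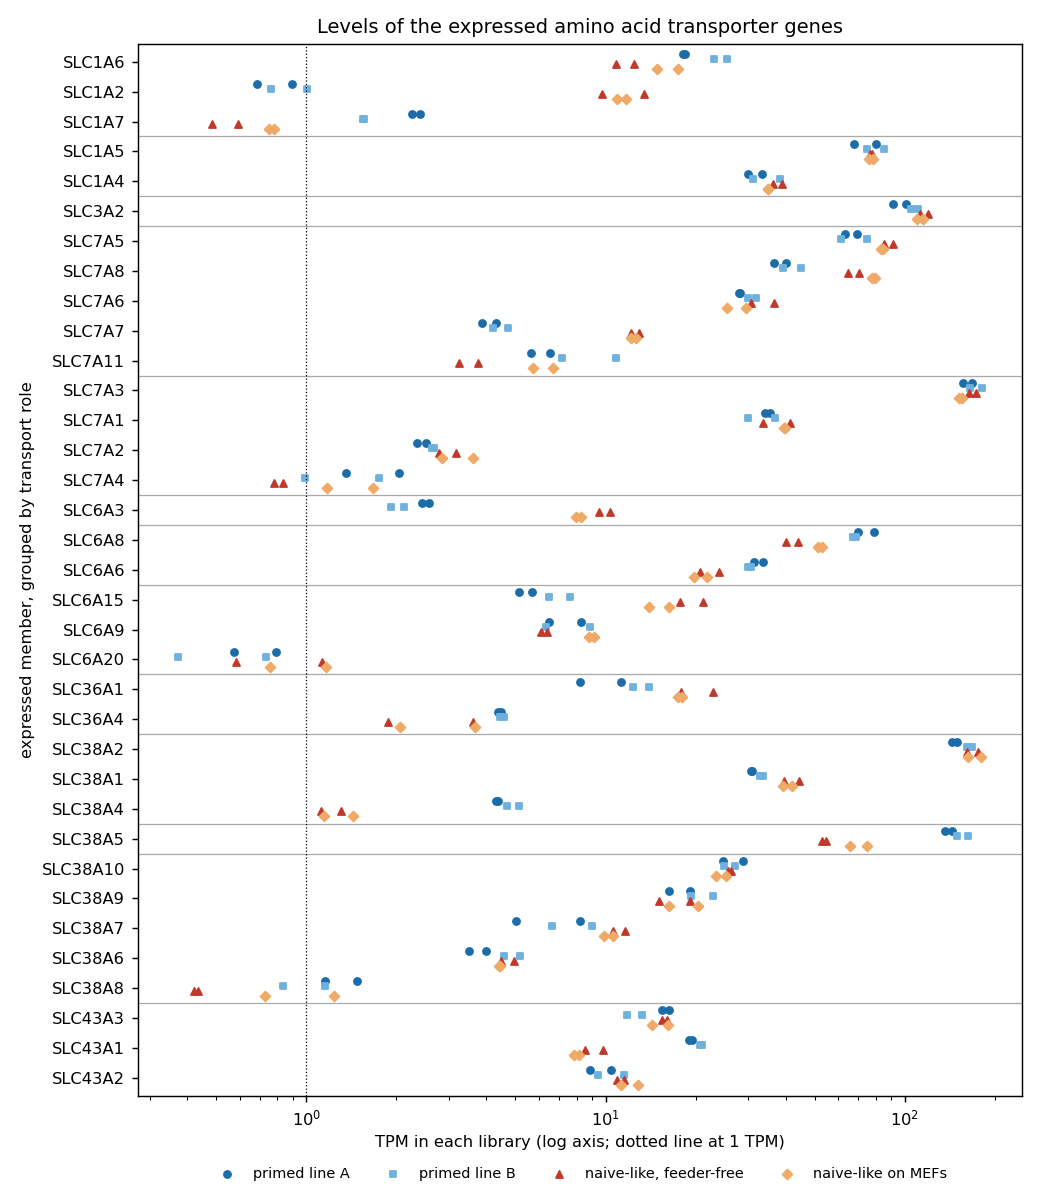
TPM (log axis) of 35 of the 36 expressed members in each of the 8 libraries, grouped by transport role between the grey lines, with points coloured by group. SLC7A3 and SLC38A2 stand above 100 TPM in all groups, SLC38A5 does so only in the primed libraries, and SLC1A2 moves from about the dotted 1 TPM line in primed to about 10 TPM in naive-like cells.

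Summed over all 58 members, the level was nearly the same in both states, at 1189 ± 73.2 TPM in primed (SD, n = 4) and 1169 ± 37.4 TPM in naive-like libraries (SD, n = 4). The ranges overlapped, with 1104 to 1282 TPM and 1123 to 1203 TPM. Single roles differed within that sum. System N carriers, which move glutamine, asparagine and histidine, summed to 149 ± 11.0 TPM in primed and 62.5 ± 10.3 TPM in naive-like libraries. This role was lower in naive-like cells with no overlap between the states, and nearly all of its sum was SLC38A5, with means of 147.9 and 62.0 TPM. SLC7 light chains went the other way, from 149 ± 13.0 to 208 ± 8.05 TPM, again with no overlap. Smaller roles also differed without overlap. Among them, SLC43 carriers went from 44.3 ± 1.265 to 35.7 ± 1.18 TPM and SLC36 carriers from 15.9 ± 2.50 to 21.9 ± 3.18 TPM. The amino acid carriers of SLC6 went from 15.3 ± 2.16 to 26.5 ± 1.86 TPM. Cationic SLC7 carriers (206 ± 12.4 and 204 ± 9.67 TPM) and neutral SLC1 carriers (110.2 ± 11.1 and 113 ± 2.53 TPM) overlapped between the states. The sums are descriptions and were not tested.

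**Figure D2:**
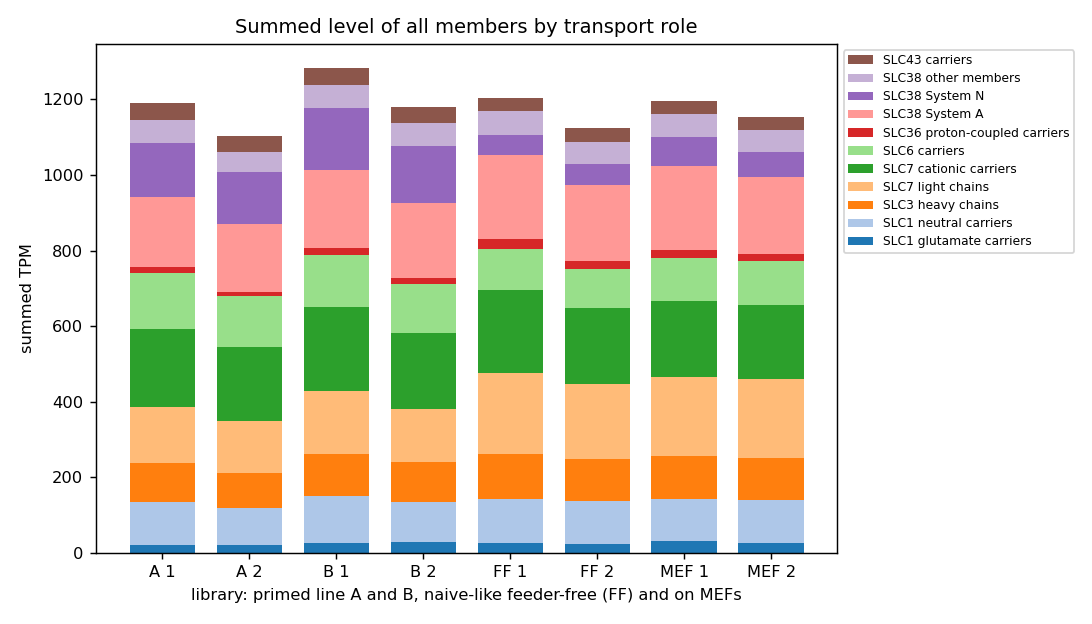
Summed TPM of all 58 members in each library, stacked by transport role (A and B, primed lines; FF, feeder-free naive-like; MEF, naive-like on MEFs; 1 and 2, libraries). The bars reach similar heights, from 1104 to 1282 TPM, while the System N block is smaller and the SLC7 light chain block larger in the naive-like libraries.

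For the effect of state, all 4 naive-like libraries were set against all 4 primed ones. The test was limma on log2(TPM + 1) over all 14779 genes that passed the filter, with Benjamini-Hochberg adjustment and a call at an adjusted p under 0.05. Log2 changes are on that scale, are given as naive-like minus primed, and understate the change of genes with low TPM. Of the 36 expressed members, 9 rose (25.0%, against 28.6% of all genes tested), 9 fell (25.0%, against 22.1%) and 18 did not pass. By at least 2-fold, 4 members rose (11.1%, against 4.78% of all genes) and 4 fell (11.1%, against 6.02%). The states did not overlap for 19 members (52.8%, against 47.7% of all genes). The median log2 change was 0.06 over the members and 0.05 over all genes, and the median absolute log2 change was 0.36 and 0.30. The members were thus called about as often as genes in general. Among the members that rose, the largest changes were those of the glutamate carrier SLC1A2 and the dopamine carrier SLC6A3.

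Among the glutamate carriers the make-up differed between the states while the summed level overlapped. SLC1A2, the main glutamate carrier of astrocytes, was at 0.686 and 0.894 TPM in line A, 0.764 and 1.01 TPM in line B, 13.5 and 9.73 TPM in feeder-free naive-like cells and 11.7 and 10.9 TPM on MEFs. All naive-like libraries were above all primed ones, and the gene went from near the limit of expression to a level close to that of SLC1A6. It rose by 2.76 ± 0.116 (log2, SE, adjusted p = 2.22e-07). SLC1A6, a glutamate carrier known from cerebellar Purkinje cells, was at 18.1 and 18.5 TPM (line A), 23.1 and 25.4 TPM (line B), 10.8 and 12.4 TPM (feeder-free naive-like) and 17.4 and 14.9 TPM (on MEFs). Its naive-like libraries were all lower than its primed ones, with the feeder-free pair lowest. SLC1A6 fell by 0.59 ± 0.156 (log2, SE, adjusted p = 0.0117), and with the libraries of each group averaged the call was lost (adjusted p = 0.0962). SLC1A7, a retinal glutamate carrier, was low in both states, at 1.54 to 2.40 TPM in primed and 0.482 to 0.782 TPM in naive-like libraries, and fell by 0.82 ± 0.141 (log2, SE, adjusted p = 0.0011). SLC1A2 made up 3.45 ± 0.511% of the summed glutamate carriers in primed (SD, n = 4) and 43.3 ± 6.99% in naive-like libraries, and SLC1A6 87.0 ± 3.28% and 51.9 ± 6.19%. The summed level of the glutamate carriers was 24.4 ± 3.20 TPM in primed and 26.6 ± 2.93 TPM in naive-like libraries, with overlap.

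The neutral SLC1 carriers did not pass. SLC1A5 (ASCT2), a main route of glutamine into growing cells, was at 80.4 and 67.8 TPM in line A, 85.4 and 74.7 TPM in line B, 78.0 and 76.3 TPM in feeder-free naive-like cells and 75.8 and 78.0 TPM on MEFs, and its change was 0.01 ± 0.0702 (log2, SE, adjusted p = 0.964). SLC1A4 (ASCT1), which exchanges alanine, serine and cysteine, was at 33.3 and 30.0 TPM (line A), 38.2 and 31.0 TPM (line B), 38.9 and 36.3 TPM (feeder-free naive-like) and 35.0 and 35.0 TPM (on MEFs), with a change of 0.13 ± 0.0812 (log2, SE, adjusted p = 0.198). Both genes overlapped between the states. Without line B replicate 1, SLC1A4 passed (adjusted p = 0.0372).

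SLC3A2 (CD98), the heavy chain that carries the SLC7 light chains to the cell surface, was at 101 and 91.5 TPM in line A, 111 and 105 TPM in line B, 119 and 113 TPM in feeder-free naive-like cells and 115 and 110.1 TPM on MEFs. The naive-like libraries were on the whole a little higher, but the states overlapped, since MEF replicate 2 was below the highest primed library. The change of 0.16 ± 0.0632 (log2, SE, adjusted p = 0.0557) did not pass, and it passed without line B replicate 1 (adjusted p = 0.0264) and in the fit of all 4 groups (adjusted p = 0.0167).

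Of the 5 expressed light chains, 3 rose and 2 did not pass. SLC7A5 (LAT1), which takes up leucine and other large neutral amino acids, was at 69.1 and 63.1 TPM in line A, 75.0 and 61.2 TPM in line B, 91.1 and 85.0 TPM in feeder-free naive-like cells and 84.9 and 83.0 TPM on MEFs. SLC7A8 (LAT2), a related exchanger with a wider range, was at 40.0 and 36.6 TPM (line A), 45.0 and 39.2 TPM (line B), 70.2 and 64.7 TPM (feeder-free naive-like) and 79.8 and 77.9 TPM (on MEFs). For both, each naive-like library was above each primed one, and SLC7A8 was highest on MEFs. SLC7A5 rose by 0.36 ± 0.0701 (log2, SE, adjusted p = 0.00244) and SLC7A8 by 0.85 ± 0.0856 (log2, SE, adjusted p = 4.66e-05). The ratio of SLC7A8 to SLC7A5 was 0.600 ± 0.0287 in primed and 0.853 ± 0.1003 in naive-like libraries (SD, n = 4).

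SLC7A7 and SLC7A6 are the light chains of system y+L, which exchanges cationic for neutral amino acids. SLC7A7 (y+LAT1) was at 4.29 and 3.86 TPM in line A, 4.21 and 4.72 TPM in line B, 12.9 and 12.2 TPM in feeder-free naive-like cells and 12.6 and 12.1 TPM on MEFs. The spread within each state was small next to the gap between them, and the rise was 1.35 ± 0.0791 (log2, SE, adjusted p = 1.5e-06). SLC7A6 (y+LAT2) was the more abundant of the pair, at 28.2 and 28.0 TPM (line A), 31.7 and 29.9 TPM (line B), 36.6 and 30.6 TPM (feeder-free naive-like) and 25.5 and 29.6 TPM (on MEFs), overlapped between the states and had a change of 0.04 ± 0.102 (log2, SE, adjusted p = 0.761). It overlaps SLC7A6OS, a gene named for the opposite strand, in the RefSeq annotation, and whether reads were counted by strand is not given in the sources used here. SLC7A11 (xCT), which imports cystine in exchange for glutamate, was at 5.63 to 6.50 TPM in line A, 7.14 to 10.8 TPM in line B, 3.23 to 3.74 TPM in feeder-free naive-like cells and 5.74 to 6.67 TPM on MEFs. Its change of -0.55 ± 0.231 (log2, SE, adjusted p = 0.073) did not pass, and it passed without MEF replicate 1 (adjusted p = 0.0345), with median-ratio scaling (adjusted p = 0.0447) and in the fit of 4 groups (adjusted p = 0.00671). The summed light chains that pair with SLC3A2 were 1.46 ± 0.0739 times the level of SLC3A2 in primed and 1.82 ± 0.0659 times in naive-like libraries, with no overlap.

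No cationic carrier passed. SLC7A3 (CAT3), an arginine and lysine carrier, was the most abundant member in primed cells, at 167 and 156 TPM in line A, 182 and 166 TPM in line B, 173 and 164 TPM in feeder-free naive-like cells and 156 and 152 TPM on MEFs. SLC7A1 (CAT1), the widespread carrier of the same amino acids, was at 35.6 and 34.0 TPM (line A), 37.0 and 30.0 TPM (line B), 41.3 and 33.6 TPM (feeder-free naive-like) and 39.9 and 39.6 TPM (on MEFs). Both overlapped between the states. The change was -0.06 ± 0.0606 (log2, SE, adjusted p = 0.475) for SLC7A3 and 0.17 ± 0.0862 (log2, SE, adjusted p = 0.124) for SLC7A1. SLC7A1 passed without feeder-free replicate 2 (adjusted p = 0.036). SLC7A3 made up 81.4 ± 1.22% of the summed cationic carriers in primed and 79.0 ± 1.86% in naive-like libraries. SLC7A2 (CAT2) was low, at 2.34 to 2.66 TPM in primed and 2.78 to 3.60 TPM in naive-like libraries. It was the one member whose states did not overlap and whose change, 0.21 ± 0.101 (log2, SE, adjusted p = 0.111), did not pass. SLC7A4 lay at 0.781 to 2.04 TPM and had a change of -0.26 ± 0.18 (log2, SE, adjusted p = 0.252).

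In SLC6, the carriers of taurine and creatine fell and a dopamine and a neutral amino acid carrier rose. SLC6A8, the creatine carrier, was at 79.0 and 70.0 TPM (line A), 68.6 and 67.2 TPM (line B), 44.1 and 40.2 TPM (feeder-free naive-like) and 51.5 and 53.1 TPM (on MEFs). SLC6A6, the taurine carrier, was at 33.7 and 31.5 TPM in line A, 30.7 and 29.9 TPM in line B, 24.0 and 20.6 TPM in feeder-free naive-like cells and 19.8 and 21.9 TPM on MEFs. Neither gene overlapped between the states. SLC6A8 fell by 0.59 ± 0.0951 (log2, SE, adjusted p = 0.000796) and SLC6A6 by 0.52 ± 0.0736 (log2, SE, adjusted p = 0.000349).

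SLC6A3 (DAT), the carrier that recovers dopamine in midbrain neurons, was at 2.58 and 2.44 TPM in line A, 1.92 and 2.13 TPM in line B, 9.48 and 10.4 TPM in feeder-free naive-like cells and 7.96 and 8.29 TPM on MEFs. Naive-like libraries were all well above primed ones, while the other monoamine carriers SLC6A2 and SLC6A4 were silent in both states. It rose by 1.61 ± 0.112 (log2, SE, adjusted p = 4.4e-06). SLC6A15, a brain carrier of branched-chain amino acids and proline, was at 5.69 and 5.15 TPM (line A), 7.59 and 6.47 TPM (line B), 17.7 and 21.1 TPM (feeder-free naive-like) and 16.3 and 14.0 TPM (on MEFs). The groups of each state did not overlap, and it rose by 1.33 ± 0.141 (log2, SE, adjusted p = 6.04e-05). SLC6A9 (GLYT1), the glial glycine carrier, was at 6.08 to 9.16 TPM over all libraries and had a change of 0.01 ± 0.156 (log2, SE, adjusted p = 0.954). SLC6A20, a proline carrier, lay at 0.373 to 1.17 TPM, at the edge of expression, and had a change of 0.23 ± 0.152 (log2, SE, adjusted p = 0.227).

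The proton-coupled carriers moved in opposite directions. SLC36A1 (PAT1), a carrier of small amino acids in lysosomes and at the surface, was at 11.3 and 8.22 TPM in line A, 14.0 and 12.3 TPM in line B, 22.8 and 17.9 TPM in feeder-free naive-like cells and 18.0 and 17.5 TPM on MEFs, with naive-like libraries all above primed ones, and rose by 0.70 ± 0.15 (log2, SE, adjusted p = 0.00381). SLC36A4 (PAT4), which moves proline and tryptophan, was at 4.38 to 4.59 TPM in primed and 1.87 to 3.65 TPM in naive-like libraries. The naive-like libraries spread widely within both groups, and in both replicate 1 was the higher. Replicate 1 was at 3.59 TPM (feeder-free) and 3.65 TPM (on MEFs), and replicate 2 at 1.87 and 2.06 TPM. SLC36A4 fell by 0.56 ± 0.17 (log2, SE, adjusted p = 0.0211), and the call was lost without MEF replicate 2 (adjusted p = 0.0558), with no filter (adjusted p = 0.071) and with groups treated as random blocks (adjusted p = 0.108).

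Of the tested glutamine carriers of SLC38, the 1 of System N fell, while of the 3 of System A 1 rose, 1 fell and 1 did not pass. SLC38A5 (SNAT5), the System N carrier expressed here, was at 143 and 137 TPM in line A, 163 and 149 TPM in line B, 53.0 and 54.4 TPM in feeder-free naive-like cells and 74.9 and 65.8 TPM on MEFs. The primed libraries were all above 130 TPM and the naive-like ones all below 80 TPM, and it fell by 1.25 ± 0.11 (log2, SE, adjusted p = 2.01e-05). SLC38A2 (SNAT2), the System A carrier known to be induced when amino acids are scarce, was at 149 and 143 TPM (line A), 168 and 161 TPM (line B), 176 and 161 TPM (feeder-free naive-like) and 179 and 163 TPM (on MEFs). It overlapped between the states and its change of 0.13 ± 0.0635 (log2, SE, adjusted p = 0.119) did not pass, except in the fit of 4 groups (adjusted p = 0.0465). SLC38A2 was 1.05 ± 0.0211 times the level of SLC38A5 in primed and 2.79 ± 0.435 times in naive-like libraries (SD, n = 4). Among all genes in the table, SLC38A5 ranked 973rd by mean level in primed and 2557th in naive-like cells, and SLC38A2 926th and 882nd.

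SLC38A1 (SNAT1), another System A carrier, was at 30.8 and 30.5 TPM in line A, 33.5 and 32.7 TPM in line B, 44.2 and 39.4 TPM in feeder-free naive-like cells and 42.0 and 39.0 TPM on MEFs, with all naive-like libraries higher, and rose by 0.36 ± 0.0619 (log2, SE, adjusted p = 0.00118). SLC38A4 (SNAT4), a System A carrier that is imprinted in the mouse, was at 4.38 and 4.32 TPM (line A), 4.69 and 5.12 TPM (line B), 1.30 and 1.12 TPM (feeder-free naive-like) and 1.15 and 1.43 TPM (on MEFs), with all naive-like libraries lower, and fell by 1.32 ± 0.0998 (log2, SE, adjusted p = 7.73e-06). These genes and SLC38A2 lie next to each other in the RefSeq gene order, with 0 coding genes between SLC38A4 and SLC38A2 and between SLC38A2 and SLC38A1, so that in this row of genes one fell, one did not pass and one rose. SLC38A2 alone gave 81.0 ± 0.424% of the summed System A carriers in primed and 80.0 ± 0.475% in naive-like libraries.

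Among the other SLC38 genes, 1 of 5 expressed ones passed. SLC38A7, which moves glutamine and asparagine out of lysosomes, was at 8.21 and 5.04 TPM in line A, 9.02 and 6.60 TPM in line B, 11.6 and 10.6 TPM in feeder-free naive-like cells and 9.87 and 10.6 TPM on MEFs. It rose by 0.53 ± 0.151 (log2, SE, adjusted p = 0.016), without overlap, and the call was lost with no filter (adjusted p = 0.0547) and with groups treated as random blocks (adjusted p = 0.0781). SLC38A9, the lysosomal arginine sensor of mTORC1, was at 16.4 and 19.1 TPM (line A), 19.3 and 22.9 TPM (line B), 19.1 and 15.1 TPM (feeder-free naive-like) and 20.4 and 16.2 TPM (on MEFs), with overlap and a change of -0.13 ± 0.121 (log2, SE, adjusted p = 0.409). SLC38A10 was at 28.9 and 24.6 TPM in line A, 27.2 and 24.9 TPM in line B, 25.7 and 26.2 TPM in feeder-free naive-like cells and 25.3 and 23.4 TPM on MEFs, also with overlap and a change of -0.07 ± 0.0706 (log2, SE, adjusted p = 0.46). SLC38A6 lay at 3.51 to 5.17 TPM and had a change of 0.08 ± 0.113 (log2, SE, adjusted p = 0.582). SLC38A8 lay at 0.420 to 1.48 TPM and its change of -0.36 ± 0.174 (log2, SE, adjusted p = 0.115) did not pass, but did so without MEF replicate 2 (adjusted p = 0.0282) and in the fit of 4 groups (adjusted p = 0.0399).

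Of the SLC43 genes, 1 fell and 2 did not pass. SLC43A1 (LAT3), a carrier of branched-chain amino acids and phenylalanine, was at 19.4 and 18.9 TPM in line A, 20.7 and 21.1 TPM in line B, 8.51 and 9.83 TPM in feeder-free naive-like cells and 7.83 and 8.14 TPM on MEFs. Each naive-like library was lower than each primed one, and it fell by 1.14 ± 0.0829 (log2, SE, adjusted p = 6.15e-06). SLC43A2 (LAT4), its near relative, was at 10.4 and 8.86 TPM (line A), 11.6 and 9.47 TPM (line B), 10.9 and 11.5 TPM (feeder-free naive-like) and 12.8 and 11.3 TPM (on MEFs), and SLC43A3, a nucleobase carrier of the same family, at 16.3 and 15.4 TPM in line A, 11.8 and 13.2 TPM in line B, 15.4 and 16.0 TPM in feeder-free naive-like cells and 14.3 and 16.2 TPM on MEFs. Both overlapped between the states, with changes of 0.20 ± 0.0939 (log2, SE, adjusted p = 0.111) and 0.12 ± 0.102 (log2, SE, adjusted p = 0.335). SLC43A2 passed without line B replicate 1 (adjusted p = 0.0456). SLC43A1 went from 45.2 ± 2.78% to 24.0 ± 1.76% of the summed family.

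**Figure D3:**
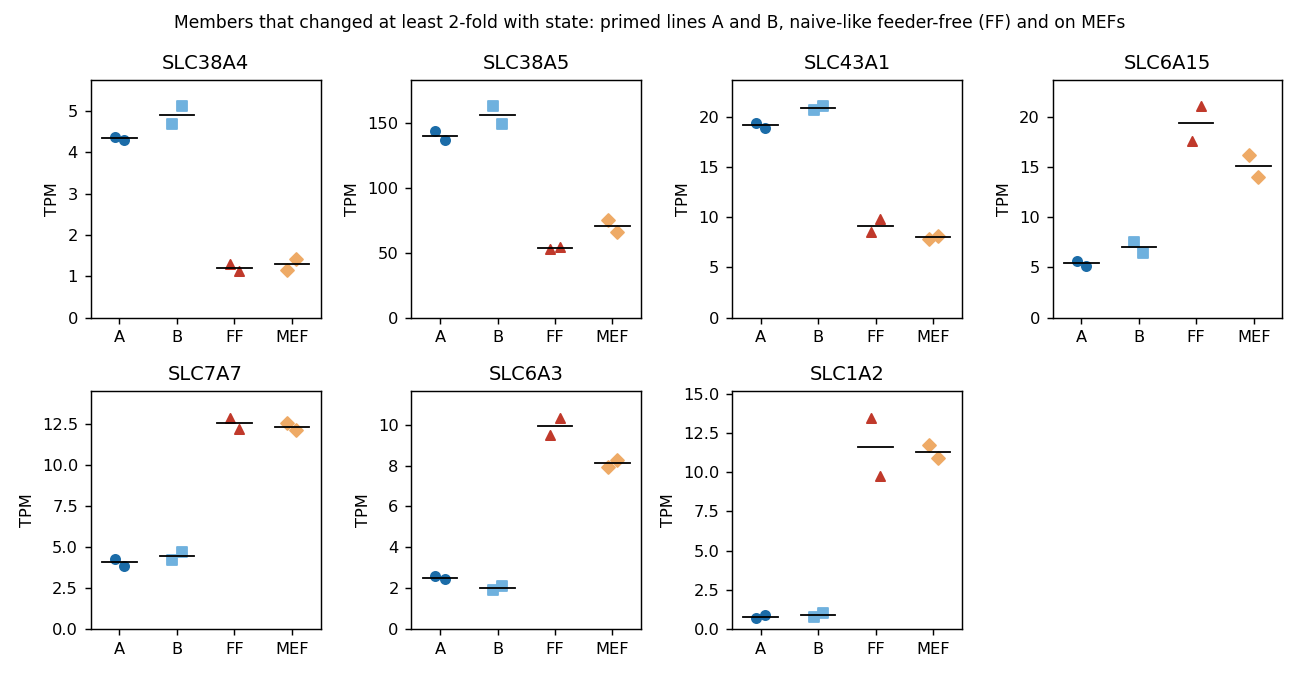
TPM (axes from 0) in each library, with group means as lines, of 7 members that were called and changed at least 2-fold on the log2(TPM + 1) scale (A and B, primed lines; FF, feeder-free naive-like; MEF, naive-like on MEFs). In each panel the primed and naive-like libraries do not overlap, as for SLC38A5 with 137 to 163 TPM in primed and 53.0 to 74.9 TPM in naive-like libraries.

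Feeder-free naive-like cells were next set against the primed cells, since neither arm of that comparison holds feeder cells. The comparison shares the primed libraries with the one above, and was a contrast in a fit of all 4 groups. Of the 36 members, 10 rose (27.8%, against 30.8% of all genes tested), 11 fell (30.6%, against 25.6%) and 15 did not pass. The median log2 change was 0.12 over the members and 0.04 over all genes. SLC38A5 fell by 1.44 ± 0.0662 (log2, SE, adjusted p = 1.22e-06) and SLC1A6 by 0.81 ± 0.0931 (log2, SE, adjusted p = 0.000182). SLC1A2 rose by 2.77 ± 0.145 (log2, SE, adjusted p = 2.56e-06), SLC6A3 by 1.74 ± 0.097 (log2, SE, adjusted p = 3.32e-06) and SLC6A15 by 1.50 ± 0.113 (log2, SE, adjusted p = 1.75e-05).

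SLC7A11, SLC38A8 and SLC3A2 passed in this contrast and not in that of all naive-like libraries, and the difference between the contrasts was not tested. The fits differ in form, and in the fit of 4 groups these genes also passed for all naive-like libraries (adjusted p = 0.00671, 0.0399 and 0.0167). SLC7A11 was at 5.63 to 10.8 TPM in primed and 3.23 to 3.74 TPM in feeder-free naive-like libraries and fell by 0.89 ± 0.16 (log2, SE, adjusted p = 0.00189). SLC38A8 fell by 0.59 ± 0.156 (log2, SE, adjusted p = 0.013) and SLC3A2 rose by 0.19 ± 0.0577 (log2, SE, adjusted p = 0.0246). The call of SLC3A2 was lost on leaving out replicate 2 of line A or of line B, or feeder-free replicate 1 (adjusted p = 0.0578, 0.0607 and 0.137). It was also lost without ribosomal RNA genes, with no filter and with no variance trend (adjusted p = 0.0865, 0.0683 and 0.0631). That of SLC38A8 was lost without either feeder-free library (adjusted p = 0.0543 and 0.0609). SLC38A7 lost its call with no filter (adjusted p = 0.128) and without line B replicate 2, feeder-free replicate 1 or feeder-free replicate 2 (adjusted p = 0.0596, 0.121 and 0.0701). SLC36A4 lost it without any single primed library (adjusted p up to 0.0951) and without feeder-free replicate 2 (adjusted p = 0.386), with a pseudocount of 0.1 (adjusted p = 0.0562), with no filter (adjusted p = 0.203) and with no variance trend (adjusted p = 0.0648). Some members passed under an alternative alone. SLC7A4 did so without ribosomal RNA genes (adjusted p = 0.0486) and SLC38A2 with the replicate block (adjusted p = 0.0493). With a library left out, SLC7A4 passed on leaving out replicate 1 of line A or replicate 2 of line B (adjusted p = 0.0432 and 0.0278), SLC1A4 without line B replicate 1 (adjusted p = 0.0244) and SLC7A6 without feeder-free replicate 2 (adjusted p = 0.0359).

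**Figure D4:**
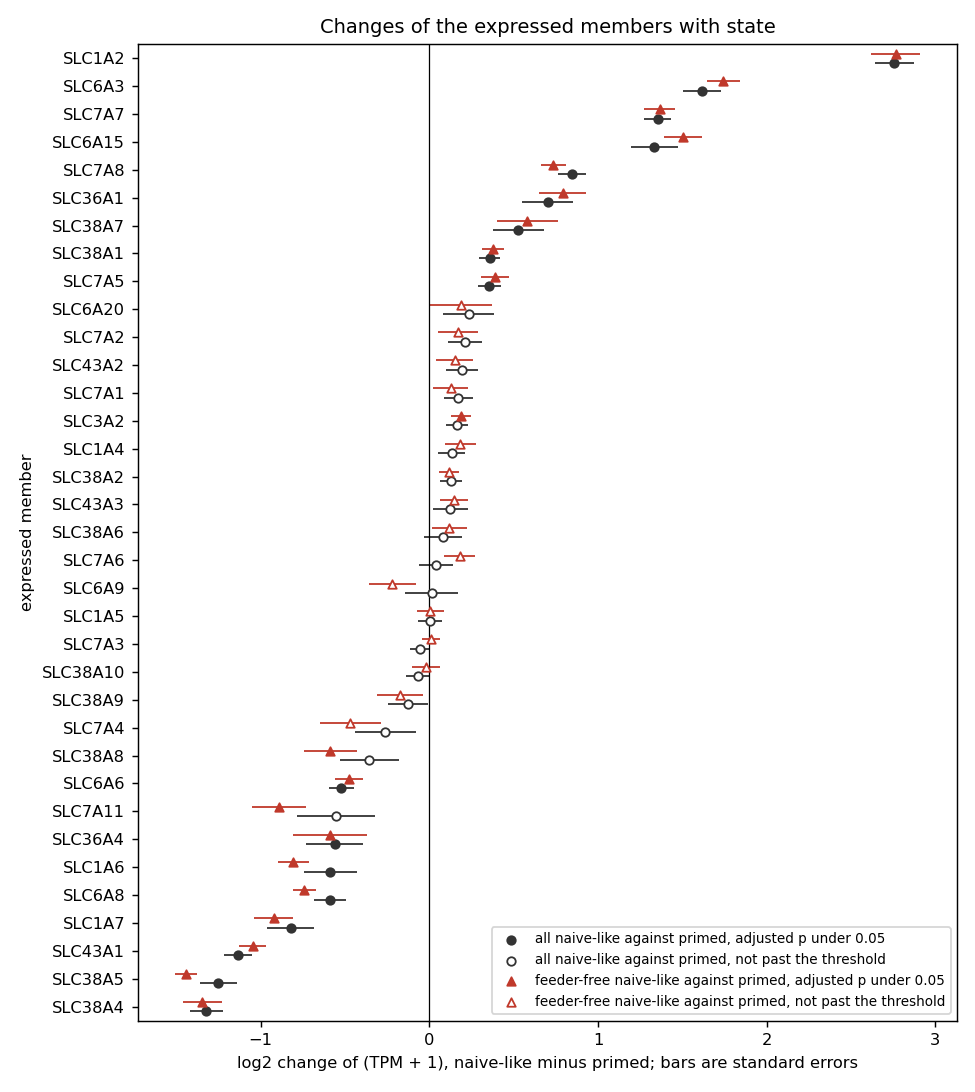
Log2 change of (TPM + 1) with its standard error for 35 of the 36 expressed members, for all naive-like libraries (black circles) and for the feeder-free ones (red triangles) against the same primed libraries. Filled points have an adjusted p under 0.05. SLC1A2 rose by 2.76 at the top and SLC38A4 fell by 1.32 at the bottom, and SLC3A2, SLC38A8 and SLC7A11 are filled for the feeder-free libraries alone.

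Within the naive-like state, cells on MEFs were compared with feeder-free cells. Of the 36 members, 2 were higher on MEFs (5.56%, against 2.89% of all genes tested) and 0 were lower (limma, against 2.27%), and 10 members had an unadjusted p under 0.05. SLC38A5 was at 53.0 to 54.4 TPM in feeder-free and 65.8 to 74.9 TPM in MEF libraries and rose by 0.38 ± 0.0764 (log2, SE, adjusted p = 0.0322). The MEF libraries were above the feeder-free ones and below the primed ones. The call of SLC38A5 was lost with no filter (adjusted p = 0.145) and with no variance trend (adjusted p = 0.0794). It was also lost without any single naive-like library or line A library, where the change was 0.288 to 0.473 (log2).

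The members nearest to the threshold were SLC1A6, with a change of 0.44 ± 0.108 (log2, SE, adjusted p = 0.0581), SLC6A8, with 0.30 ± 0.0771 (log2, SE, adjusted p = 0.0652), and SLC7A11, with 0.68 ± 0.184 (log2, SE, adjusted p = 0.0794). The 2 members with an unadjusted p under 0.05 and a lower level on MEFs were SLC6A15, with -0.34 ± 0.13 (log2, SE, adjusted p = 0.194), and SLC7A6, with -0.28 ± 0.105 (log2, SE, adjusted p = 0.186). The median log2 change was 0.01 over the members and 0.02 over all genes. Fibroblast markers moved in both directions in the same comparison: of 12 tested of 16 in the table, 5 were higher on MEFs and 3 lower. Of all genes tested, 2.89% were higher and 2.27% lower. In limma, the 3 lower markers were COL5A1 (-0.41 ± 0.0866, log2, SE, adjusted p = 0.0382), LUM (-0.59 ± 0.106, adjusted p = 0.0209) and TAGLN (-0.22 ± 0.0423, adjusted p = 0.0291). COL1A2, a chain of type I collagen, was at 1.73 to 3.48 TPM in primed, 0.0468 to 0.219 TPM in feeder-free and 37.0 to 39.0 TPM in MEF libraries, a rise of 5.11 ± 0.128 (log2, SE, adjusted p = 3.19e-06). COL3A1, the type III collagen chain, was at 0.0818 to 0.123 and 17.5 to 19.9 TPM, and PRRX1, a mesenchymal homeobox factor, at 0 to 0.0267 and 6.84 to 8.54 TPM. The MEFs are mouse cells, and how mouse reads were handled is not given in the sources used here. Ribosomal RNA genes summed to 14280 and 16280 TPM in the feeder-free and 26910 and 34820 TPM in the MEF libraries. The part of feeder RNA or of ribosomal RNA in the change of SLC38A5 was not tested.

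Between the primed lines, 0 of 36 members were called higher in line B (limma, against 4.18% of all genes tested) and 0 lower (against 3.17%). An unadjusted p under 0.05 was found for 9 members. The smallest adjusted p values belonged to SLC1A6, with a change of 0.39 ± 0.108 (log2, SE, adjusted p = 0.0705) in line B minus line A, and to SLC43A3, with -0.32 ± 0.098 (log2, SE, adjusted p = 0.0952). SLC1A7, SLC36A1, SLC38A2, SLC38A6, SLC3A2, SLC6A15 and SLC7A11 made up the rest of the 9, with adjusted p values from 0.13 to 0.182. The median log2 change was 0.11 over the members and 0.05 over all genes.

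Genes that work beside these carriers were drawn from 3 lists, each described here by its count for state, to be read against the 28.6% of all genes tested that rose and the 22.1% that fell. Among other amino acid and peptide carriers, 14 of the 22 listed genes were tested, of which 5 rose, 3 fell and 6 did not pass, with a median log2 change of 0.32. These counts were near the shares of all genes. SLC25A22, a mitochondrial glutamate carrier, was at 30.5 and 27.2 TPM in line A, 31.5 and 32.1 TPM in line B, 78.0 and 80.2 TPM in feeder-free naive-like cells and 72.2 and 73.8 TPM on MEFs. All naive-like libraries were above all primed ones, and the rise was 1.30 ± 0.0664 (log2, SE, adjusted p = 6.54e-07). SLC25A13, the mitochondrial aspartate and glutamate exchanger, rose by 0.66 ± 0.0711 (log2, SE, adjusted p = 6.8e-05), from 31.6 ± 2.67 to 50.5 ± 2.49 TPM (SD, n = 4). SLC25A44, a mitochondrial carrier of branched-chain amino acids, rose by 0.56 ± 0.0802 (log2, SE, adjusted p = 0.000407), and SLC25A38, the mitochondrial glycine carrier, by 0.33 ± 0.12 (log2, SE, adjusted p = 0.0465). The 3 that fell were under 5 TPM in every group mean. SLC17A7, a vesicular glutamate carrier, fell by 1.64 ± 0.123 (log2, SE, adjusted p = 7.66e-06), the largest absolute change among the tested genes of this list, from 4.36 ± 0.705 to 0.717 ± 0.120 TPM (SD, n = 4). SLC16A10, a carrier of aromatic amino acids, fell by 0.72 ± 0.12 (log2, SE, adjusted p = 0.000978) and SLC15A3, a lysosomal peptide and histidine carrier, by 0.61 ± 0.133 (log2, SE, adjusted p = 0.00409).

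Of 32 tested genes that report amino acids to mTORC1, 10 rose, 4 fell and 18 did not pass, with a median log2 change of 0.10. The share that rose was again near that of all genes. The share that fell was below the 22.1% of all genes, a difference that was not tested. RRAGB, one of the Rag GTPases that bring mTORC1 to the lysosome, was at 17.6 and 14.5 TPM in line A, 16.0 and 17.5 TPM in line B, 0.470 and 0.240 TPM in feeder-free naive-like cells and 0.177 and 0.0970 TPM on MEFs. It was thus expressed in every primed library and under 1 TPM in every naive-like one, and it fell by 3.81 ± 0.119 (log2, SE, adjusted p = 4.49e-08). Its close paralog RRAGA was at 109.9 to 128 TPM in primed and 123 to 131 TPM in naive-like libraries and its change of 0.09 ± 0.0582 (log2, SE, adjusted p = 0.206) did not pass. How the quantification split reads between such similar genes is uncertain. RRAGD, the partner GTPase, rose by 1.12 ± 0.11 (log2, SE, adjusted p = 3.97e-05), from 29.0 ± 4.98 to 63.5 ± 2.94 TPM (SD, n = 4). DEPDC5, a subunit of the GATOR1 complex that restrains mTORC1, rose by 0.91 ± 0.0783 (log2, SE, adjusted p = 1.73e-05), and FNIP2, a partner of folliculin, by 1.04 ± 0.11 (log2, SE, adjusted p = 6.33e-05).

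The response to amino acid shortage runs through the kinase GCN2 and the factor ATF4. Of 18 tested genes of this response, 6 rose, 4 fell and 8 did not pass, with a median log2 change of 0.04, again near the shares of all genes. ATF5, a factor related to ATF4, was at 7.76 and 6.48 TPM in line A, 9.85 and 7.59 TPM in line B, 49.5 and 57.6 TPM in feeder-free naive-like cells and 58.0 and 53.1 TPM on MEFs, and rose by 2.65 ± 0.112 (log2, SE, adjusted p = 2.22e-07). DDIT4, an inhibitor of mTORC1 that is also induced by low oxygen, was at 432 and 425 TPM (line A), 355 and 346 TPM (line B), 105 and 107 TPM (feeder-free naive-like) and 88.4 and 87.2 TPM (on MEFs), and fell by 2.00 ± 0.0989 (log2, SE, adjusted p = 5.57e-07). EIF4EBP1, the translation repressor that mTORC1 inactivates, fell by 0.88 ± 0.0954 (log2, SE, adjusted p = 7.14e-05), and CEBPG, a dimer partner of ATF4, rose by 0.54 ± 0.0814 (log2, SE, adjusted p = 0.00054). In MEF against feeder-free libraries the same 3 lists, with 14, 32 and 18 genes tested, had 0, 1 and 1 genes higher. They had 1, 0 and 2 genes lower, against 2.89% of all genes tested higher and 2.27% lower. Between the lines, 0, 2 and 0 were higher and 0, 0 and 1 lower in line B, against 4.18% and 3.17% of all genes.

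In the RefSeq gene order of ARS-UI_Ramb_v3.0, several members stand next to each other, some with very different levels. SLC36A3, SLC36A2 and SLC36A1 are adjacent, and of these SLC36A3 and SLC36A2 were silent while SLC36A1 was at 8.22 to 22.8 TPM. SLC6A18 and SLC6A19 are adjacent silent genes, with 2 coding genes between SLC6A18 and SLC6A3. SLC6A12 and SLC6A13 are adjacent and silent. SLC43A3 and SLC43A1 have 1 coding gene between them, and of this pair SLC43A1 fell.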

How the data were processed

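The authors deposited a table of TPM, with gene symbols and 8 columns, made with Salmon per the submitters' processing notes. The Salmon version, genome build and strand setting are not given in the sources used here, and 0 columns of the table were left unused. From the TPM, log2(TPM + 1) was computed for genes that reached 1 TPM in 2 or more libraries, and linear models with a variance trend were fitted across all 14779 of them with limma 3.58.1 in R 4.3.3. P-values are two-sided and adjusted by the Benjamini-Hochberg method over all genes tested, with a threshold of 0.05. State was fitted on the 2 states, and the other comparisons as contrasts in a fit of 4 groups. Members with a group mean of at least 10 TPM, or called with an absolute log2 change of at least 1 and a group mean of at least 2 TPM, are given in every library, and the others by their range. The values of 1 expressed member are not reported here, though it is counted among those tested and called. Up to 4 genes with the smallest adjusted p for state, among those with a group mean of at least 5 TPM, are named from each list of neighbouring pathways. RRAGA, SLC17A7, SLC16A10 and SLC15A3 were named after their values were seen. The rule for members used gene symbols alone, but that rule and the lists were chosen with earlier results of these data known. The fits were tested on simulated data. Alternatives were other pseudocounts, filters, scalings, thresholds and blocks, no variance trend, and leaving out each library.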

Additional observations from a re-analysis of the deposited data

Results flagged for a closer look

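In the naive-like libraries, SLC36A1 was at 22.8 TPM in feeder-free replicate 1, with the other 3 libraries at 17.5 to 18.0 TPM, so that the gap to its nearest neighbour took up most of the range of the 4 (ratio 0.902). SLC38A6 was at 4.95 TPM in feeder-free replicate 2, with the other 3 at 4.41 to 4.49 TPM (ratio 0.863). Of 72 sets of 4 libraries of a state that were examined, these 2 stood apart in this way. Chance gives about 5% of sets where the 4 values are independent draws from a single normal distribution. Each set here joins 2 groups of 2 libraries, so the share that chance gives may differ.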

How the results depend on the processing

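For state, 18 members were called and the alternatives gave 15 to 22; for the feeder-free naive-like libraries against primed, 21 and 17 to 22. In state, 657 of 674 values of single members under the alternatives kept their side of the threshold. Another 6 lost the call and 11 gained it. Among members called in either fit, 0 values changed direction, and a change of direction was not counted where neither fit called the member. In the feeder-free comparison, whose member-by-member alternatives were added after seeing the data, 540 of 566 values kept their side. There 20 lost the call, 6 gained it and 0 changed direction, counted in the same way. The count for MEFs against feeder-free (2) became 0 at an adjusted p under 0.01, 0 with no filter, 1 with no variance trend, 3 with a mean of at least 5 TPM, 3 with median-ratio scaling, 3 without ribosomal RNA genes and 0 to 3 with a library left out. The count between lines (0) became 1 with no variance trend and was 0 under all other alternatives. The cause was not tested. The replicate block gave 18 members for state, 22 for feeder-free against primed, 3 for MEFs and 0 for lines. Over all genes tested, deviations of same-numbered libraries correlated at -0.075 to 0.097 for 6 pairs of groups. Thus no strong shift shared by number was seen across genes, though single members such as SLC36A4 did differ by number. With 2 libraries in a group, these deviations hold much noise, and a weaker pairing by number is not excluded. With median-ratio scaling 9 members rose and 10 fell for state, and without ribosomal RNA genes 10 and 9. TPM hold no counts, so what depth adds to the error is unknown.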
